A study of Mus musculus with 2 samples.

Results

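Bcr-Abl is a fusion of the kinase Abl1 with part of Bcr, and 10 mouse genes around it were followed here through 1 map of Sox4 on chromatin: Abl1 and Bcr, the adaptor, docking and exchange genes Crkl, Grb2, Gab2 and Sos1, the kinase gene Jak2, the transcription factor genes Stat5a and Stat5b, and the ubiquitin ligase gene Cbl. They were chosen by name, with earlier results of these data known, out of 20953 protein-coding genes examined. Every peak was taken whose deposited annotation lists one of them. The cells were C57BL/6 progenitor B cells grown from embryonic fetal liver. Retroviruses had brought in BirA (a biotin ligase), then p190 Bcr-Abl, then SE-Cre and last BAP-Sox4 (Sox4 with a tag), with a sort after every step. The study used 1 library of chromatin captured on streptavidin beads (bioChIP, Sox4 peak list deposited) and 1 input library of the same cells. Both thus came from cells that had received all 4 constructs. The input library was not analysed here, the labels' antibody field reads SOX4 although the protocol describes streptavidin beads, and no pull-down from cells without tagged Sox4 was analysed. With 1 library no value has a replicate check, and a peak here is enrichment in the pull-down, which alone does not prove Sox4 binding.

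Bcr-Abl is constantly active as a tyrosine kinase. Its Bcr part, once phosphorylated, recruits the adaptor Grb2, which brings the exchange factor Sos1 to switch on Ras and the docking protein Gab2 to engage phosphoinositide 3-kinase. The adaptor Crkl is a prominent substrate of the kinase, Stat5 proteins are activated downstream of it, and Cbl attaches ubiquitin to active tyrosine kinases. In normal progenitor B cells, Stat5 is activated by cytokine receptors through Janus kinases. Sox4 is a transcription factor of the HMG-box family that B-cell progenitors need. The endogenous genes are the subject here. The sequence of the Bcr-Abl construct is not given in the labels, and reads from it were not told apart from those of mouse Abl1 and Bcr.

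All 10 genes had a Sox4 promoter peak, meaning a peak interval within 5 kb of a transcription start site (TSS). Each had one that covered a TSS and was annotated to that gene as the closest. Of all 20953 protein-coding genes, 32.8% had a promoter peak, 30.2% had one within 1 kb of a TSS, 28.4% had one over a TSS and 27.7% had one as the closest gene. The share was 41.5% among the 7456 genes within the length range of the 10 (25819 to 227201 bp), and 55.5% among the 8295 genes with a CpG-rich start, described below. By score, the best peaks ran from Abl1, whose internal start carried an 18.2-fold peak, through Sos1 and Grb2, above 88.1% and 85.1% of genes with a promoter peak, down to Stat5a, above 7.29%. In all, 21 distinct peaks were listed for the 10 genes, of which 13 were promoter peaks of one of them. The other 8 were listed for them only from beyond 5 kb. Of the 13, 11 covered a TSS and 2 lay upstream of one. The outermost promoter peak was 4582 bp from its start (Bcr). The nearest listed peak beyond the 5 kb limit was 8321 bp away (the Stat5b peak, as seen from Stat5a).

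The reference sequence just upstream of a RefSeq start is shown for 5 of these genes. Abl1 was taken because it held the strongest peak, and Stat5a because it held the lowest-scoring start peak. The others are the fusion partner, the second strongest gene and the neighbour of Stat5a. Each is the 250 bases before a RefSeq start, in build GRCm38.p6 and read along the gene's strand. They are Abl1 at chr2:31759689-31759938 (plus strand), Bcr at chr10:75060646-75060895 (plus), Sos1 at chr17:80480454-80480703 (minus), Stat5b at chr11:100850582-100850831 (minus) and Stat5a at chr11:100860234-100860483 (plus). Capitals mark every match, on either strand, to the motifs searched: ACAAAG and ACAATG (cores that SOX proteins bind), TTCNNNGAA (STAT proteins), CCGGAA (ETS proteins) and GGGCGG (the GC box).
Abl1: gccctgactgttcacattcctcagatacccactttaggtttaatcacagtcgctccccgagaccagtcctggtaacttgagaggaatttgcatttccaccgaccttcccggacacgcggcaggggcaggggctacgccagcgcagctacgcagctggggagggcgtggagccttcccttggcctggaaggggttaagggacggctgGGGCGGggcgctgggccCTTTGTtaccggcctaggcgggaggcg
Bcr: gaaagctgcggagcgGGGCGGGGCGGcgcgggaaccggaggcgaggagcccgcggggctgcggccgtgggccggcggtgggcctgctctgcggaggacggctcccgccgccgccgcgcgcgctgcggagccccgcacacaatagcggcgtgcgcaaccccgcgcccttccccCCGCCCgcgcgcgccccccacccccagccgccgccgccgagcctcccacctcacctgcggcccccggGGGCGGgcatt
Sos1: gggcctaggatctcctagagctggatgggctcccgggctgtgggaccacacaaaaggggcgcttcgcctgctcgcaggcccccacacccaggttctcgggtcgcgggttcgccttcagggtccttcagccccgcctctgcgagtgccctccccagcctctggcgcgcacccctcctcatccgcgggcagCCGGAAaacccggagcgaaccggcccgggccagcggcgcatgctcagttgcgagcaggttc
Stat5b: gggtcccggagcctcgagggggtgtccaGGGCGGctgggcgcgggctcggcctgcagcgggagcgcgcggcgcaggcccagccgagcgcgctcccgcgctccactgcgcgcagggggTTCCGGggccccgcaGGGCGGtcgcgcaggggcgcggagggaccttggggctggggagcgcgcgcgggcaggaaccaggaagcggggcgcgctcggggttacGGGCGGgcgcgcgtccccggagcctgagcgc
Stat5a: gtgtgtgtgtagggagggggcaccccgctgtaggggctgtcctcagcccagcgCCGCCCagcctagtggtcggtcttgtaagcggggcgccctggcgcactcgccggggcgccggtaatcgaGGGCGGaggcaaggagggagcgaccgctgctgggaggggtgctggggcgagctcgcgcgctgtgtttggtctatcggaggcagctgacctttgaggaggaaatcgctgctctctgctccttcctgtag

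The peaks are placed on mm9, so windows could not be laid over them by position, and gene lengths were compared instead. The distance from the start to the gene end was the same in the deposited annotation and in the RefSeq table for Bcr (124027 bp), Sos1 (86701 bp) and Stat5a (24685 bp), and differed by 4 bp for Stat5b. For Crkl and Cbl the lengths differed by 1187 and 6286 bp and for Jak2 none could be compared, so it is not shown that their windows belong to the starts with the peaks. For Abl1 the gene ends differ between the annotations. Its internal peak ran from 70937 to 72006 bp past the first Abl1 start in the deposited list. The window shown ran from 71445 to 71694 bp past the start of the gene in the RefSeq table. The start under the peak lay 71389 bp past the first start, and the RefSeq start after the window lay 71695 bp past the gene start. Counted this way the window lies inside the peak but past its start, so it is not shown to be upstream of that start. Whether these first starts are the same base was not checked, and the table holds another Abl1 window 234 bp further on.

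A SOX core was found at 1 of the 9 genes with a window in the table, Abl1, and at 3 when the whole 300-base window of the table, which runs past the start, was searched. The letters of the Abl1 core read CTTTGT, the reverse complement of ACAAAG. They lay from 27 to 22 bases before the RefSeq start after this window, which is not shown to be the start under the peak. In all 32851 windows, cut to the bases before the start, ACAAAG occurred in 16.5%, ACAATG in 10.7% and either core in 25.2%. In such windows of protein-coding genes with a promoter peak the share with either core was 17.8%. In those of genes without one it was 24.5%. Over the whole 300-base windows these shares with either core were 28.6%, 20.7% and 27.4%. They are shares of windows, whereas the 1 and the 3 count genes, and no test was made between them. None of the 13 windows of the 9 genes held TTCNNNGAA, which 7.02% of all windows and 6.66% of windows of protein-coding genes held. The GC box was present in 7 of the 13 windows, from 6 genes (32.7% of all windows, and 63.2% of windows of protein-coding genes with a promoter peak), with 4 matches at Bcr, 3 at Stat5b and 3 at Cbl, of which those at Bcr and Cbl partly overlap each other. CCGGAA was present in 4 of the 13 windows, at Sos1, Stat5b, Crkl and Cbl (12% of all windows and 15.4% of windows of protein-coding genes). These are matches of letters in these windows only. The peaks reach beyond the windows, and the rest of their sequence was not searched. Gab2 has no window in the table.

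Most of the RefSeq windows were rich in CpG. Of the 9 genes, 8 had a window whose CpG ratio, the observed number of CpG dinucleotides over that expected from the C and G content, was 0.6 or more. Such a window was found for 49.4% of the 16783 protein-coding genes in the table. Giving the highest value where a gene has several windows, the window of Stat5b had a ratio of 0.988 at 82.0% G+C, that of Bcr 0.984 at 82.8% and that of Cbl 1.03 at 71.6%. The Jak2 window had a ratio of 0.908, Crkl 0.806, Stat5a 0.757, Sos1 0.716 and the Abl1 window shown 0.645. The exception was Grb2, with windows at 0.142 and 0.317. Both Grb2 windows belong to starts over 8 kb inside the gene (the lengths to the gene end fell short by 8571 and 8965 bp), away from the start that carried the Grb2 peak. Across all genes the share with a promoter peak rose with this ratio, from 2.73% in the lowest decile of genes to 65.9% in the highest. CpG content and the presence of a peak thus moved together over all genes, and its part in the count of 10 was not tested.

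**Figure D1:**
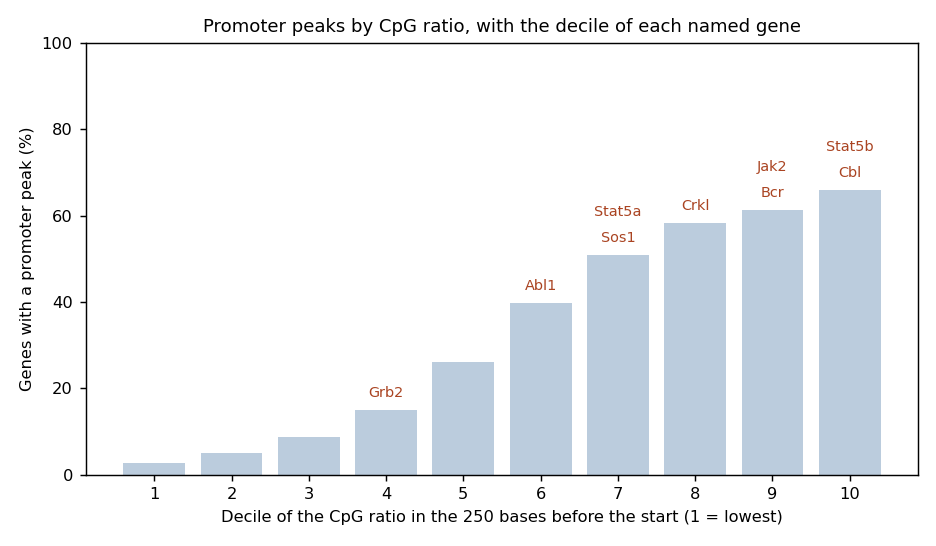
Bars give the percentage of protein-coding genes with a Sox4 promoter peak in each decile of the CpG ratio of the 250 bases before the RefSeq start (the highest ratio where a gene has several windows), and names in red stand above the decile of each of the 9 genes in the table. The bars rise from 2.73% to 65.9%, and 8 of the 9 genes lie in deciles 6 to 10, with Grb2 in decile 4.

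Abl1, the kinase part of the fusion, had a peak at each of its annotated starts, and they differed widely. The first start (transcript NM_001112703) was covered by a peak at chr2:31543518-31544533 (mm9). It held 72 tags (exact Poisson 95% interval 56.3 to 90.7), tags being the reads counted in the peak. Its fold, the tags over the background that the peak caller expected, was 3.17. Only 6.0% of all 8730 peaks had a lower fold. The internal start (NM_009594), 71389 bp further into the gene, was covered by a peak at chr2:31615012-31616081 with 194 tags (168 to 223) and a fold of 18.2. Its score (taken to be the peak p-value as minus 10 log10) was 804.3 and ranked 187 of 8730. The internal peak thus held 2.69 times the tags and 5.74 times the fold of the peak at the first start, and the counting intervals of their tags do not overlap. It was also the densest, with 181 tags per kb of peak against 70.0 to 90.8 at the other 12 promoter peaks of the 10 genes. Among the 6875 protein-coding genes with a promoter peak, 98.7% had a lower fold at their highest-scoring promoter peak.

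A further peak was listed near the Abl1 gene end (chr2:31655888-31657045, 78 tags, fold 3.61, score 102). It lay inside the gene, 2702 bp before the end and 40424 bp past the internal start. The file assigns it to the class of transcript ends and names Qrfp, 4643 bp from its own end, as the closest gene. Another peak, 5783 bp past the end of Abl1, lay within 5 kb of the start of Qrfp (91 tags, fold 5.41, score 96.7).

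Bcr, the other fusion partner, had a broad peak over its start and a small one upstream. The first lay at chr10:74522897-74524622 (NM_001081412) and, at 1725 bp, was the widest of the 13. It held 128 tags (107 to 152) with fold 4.25 and score 179.2. The upstream peak, 4582 bp before the start at chr10:74518291-74519059, held 54 tags (40.6 to 70.5) with fold 5.69 and score 76.5. The upstream peak had fewer tags and the higher fold of the pair. Per kb of peak they held 74.2 and 70.3 tags. Rtdr1 and Rab36 were also listed for the upstream peak, both from over 18 kb away.

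The genes of the Ras branch had start peaks above the median of all promoter peaks. Sos1, the exchange factor that loads Ras with GTP, had the second highest score and fold of the 10 genes. Its start peak at chr17:80878819-80880340 (NM_009231) held 136 tags (114 to 161) with fold 6.26 and score 311.9. A second Sos1 peak began 2148 bp upstream (chr17:80881940-80882760) with 63 tags (48.4 to 80.6), fold 4.67 and score 76.1. Grb2, the adaptor that carries Sos1, had 121 tags (100 to 145) with fold 5 and score 272.5 over its start (chr11:115569033-115570366, NM_008163). Neither gene shared its start peak with another gene's start. Abl1, Bcr and Sos1 were the 3 genes of the 10 with more than 1 promoter peak, as were 3.15% of all protein-coding genes.

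The docking protein gene Gab2 and the adaptor gene Crkl had peaks closer to the typical strength. The Gab2 peak (chr7:104229712-104230872, NM_001162477 and NM_010248) held 84 tags (67.0 to 104) with fold 3.75 and score 135.9. The Crkl peak (chr16:17451566-17452611, NM_007764) held 87 tags (69.7 to 107) with fold 4.30 and score 171.0. Their tag intervals overlap almost entirely. For comparison, the median over all 6600 promoter peaks was 76.0 tags, fold 4.44 and score 114, with quartiles of 57.0 and 107 tags and folds of 3.77 and 5.43.

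Of the JAK and STAT genes, Jak2 had a higher score and fold than the Stat5 genes, whose best peaks had the lowest scores and folds of the set, while by tags Jak2 (79) and Stat5b (83) were close. Jak2 encodes the kinase that works with several cytokine receptors. Its peak at chr19:29325672-29326641 (NM_001048177 and NM_008413) held 79 tags (62.5 to 98.5) with fold 5.06 and score 167.3, and no other gene was listed for it. Stat5b and Stat5a encode closely related transcription factors and lie head to head on chromosome 11. Their starts were 8766 bp apart (Stat5a NM_011488) and 9900 bp apart (NM_001164062). Each had a peak of its own, with 8968 bp between the intervals, and both genes were listed for both.

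The Stat5b peak (chr11:100711232-100712344, NM_001113563) held 83 tags (66.1 to 103) with fold 3.41 and score 83.8. The Stat5a peak (chr11:100721312-100722112) held 56 tags (42.3 to 72.7) with fold 3.08 and score 58.2. It covered the start of NM_001164062 and lay 648 bp inside NM_011488. The tag intervals of the Stat5a and Stat5b peaks overlap, and the difference between them was not tested. Among all genes with a promoter peak, 7.29% had a lower best score than Stat5a and 28% than Stat5b. The Stat5a score was not far above 50.03, the lowest of the list.

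Cbl, the ubiquitin ligase that marks active tyrosine kinases for removal, had 112 tags (92.2 to 135) with fold 5.21 and score 205.4 over its start (chr9:44041211-44042622, NM_007619). Ranked by the score of the best promoter peak, the order of the 10 genes was Abl1, Sos1, Grb2, Cbl, Bcr, Crkl, Jak2, Gab2, Stat5b and Stat5a. In this order the counting intervals of the tags of adjacent genes overlap everywhere except between Abl1 and Sos1, and only barely between Bcr and Crkl. For 8 of the 10 the best score was above the median of all genes with a promoter peak, and for 5 the fold of that peak was.

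**Figure D2:**
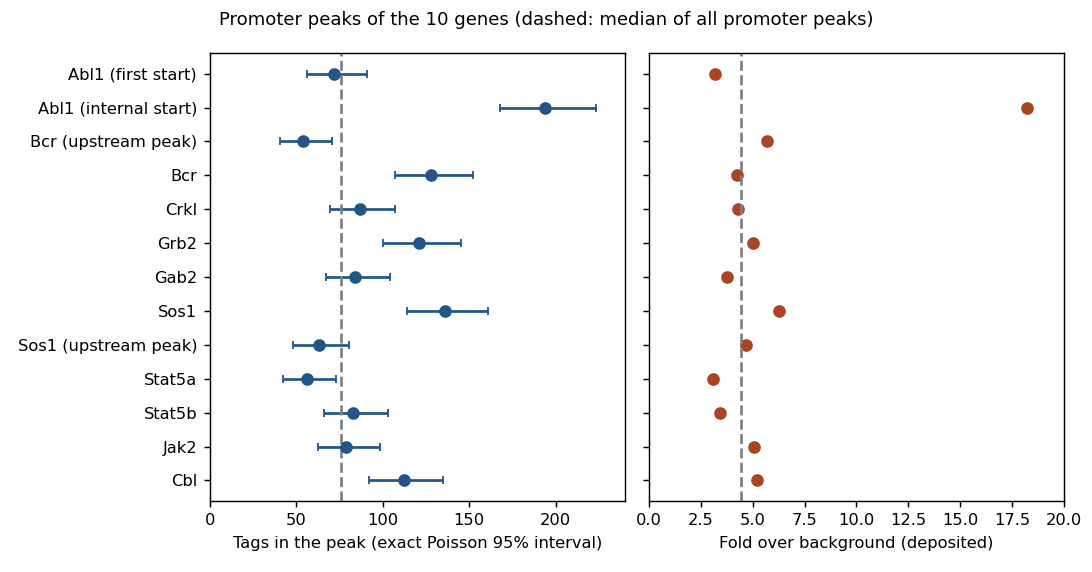
Tags in each promoter peak with exact Poisson 95% intervals (left) and the deposited fold (right) for the 13 promoter peaks of the 10 genes, with dashed lines at the medians of all promoter peaks (76.0 tags, fold 4.44). The internal Abl1 start stands apart at 194 tags and a fold of 18.2, while the other 12 peaks lie between 54 and 136 tags and between folds of 3.08 and 6.26.

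With stricter peaks the genes were reached as follows. A promoter peak with a score at or above the median of the list (104.9) was found at 8 of the 10 genes, all but Stat5a and Stat5b, compared with 18.9% of all protein-coding genes. A promoter peak of fold 5 or more was found at 6, namely Abl1, Bcr, Sos1, Grb2, Jak2 and Cbl, compared with 11.9%. The Bcr peak that met this was the upstream one, and Grb2 and Jak2 met it by a narrow margin. Only Abl1 reached a fold of 10, as did 1.48% of all genes.

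**Figure D3:**
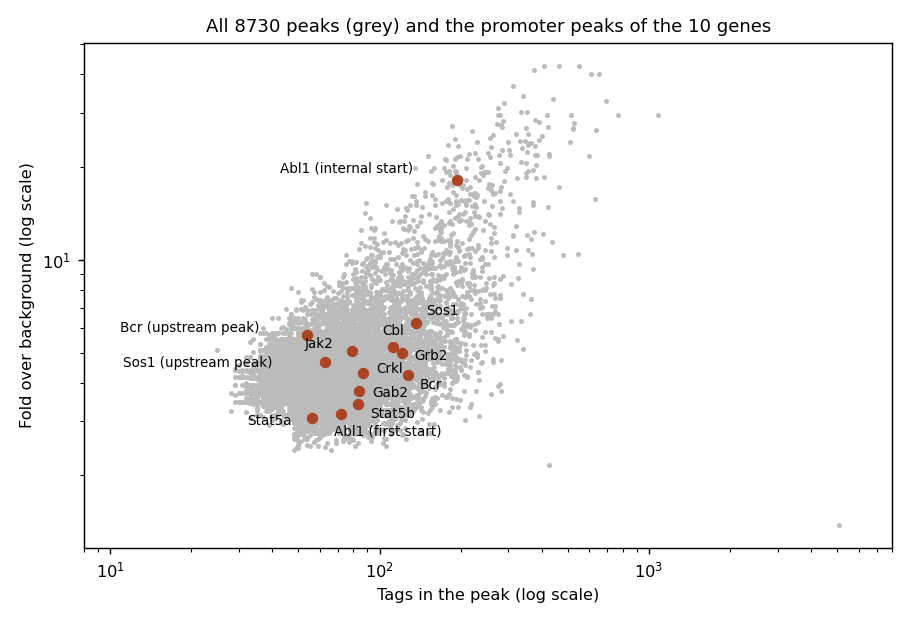
Tags (x axis, log scale) against fold over background (y axis, log scale) for all 8730 peaks in grey and the 13 promoter peaks of the 10 genes in red. Apart from the internal Abl1 start (194 tags, fold 18.2), the red points lie within the main cloud, with Stat5a (56 tags, fold 3.08) near its lower edge.

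The summits, where tags were densest, sat close to the starts. A start could be placed on mm9 from the deposited distances wherever a transcript was listed for more than 1 peak, which held for every gene of the 10 but Jak2. Of the 10 peaks over such a start, 9 had the summit upstream of it, compared with 60.0% of the 2928 peaks over a placed start in the whole list. All 10 had it within 300 bp, compared with 80.3%. The summit lay 39 bp upstream at the first Abl1 start and 43 bp upstream at the internal one. It was 46 bp upstream for Stat5b, 72 bp for Grb2, 86 bp for both Gab2 and Sos1, 175 bp for Cbl, 231 bp for Stat5a and 260 bp for Bcr. Only at Crkl was it downstream, by 104 bp. The median offset was -79.0 bp for the 10 peaks and -34.0 bp for all 2928 (quartiles -123 and 81.0 bp). The upstream peaks of Bcr and Sos1 had summits 4928 and 2581 bp before the start.

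**Figure D4:**
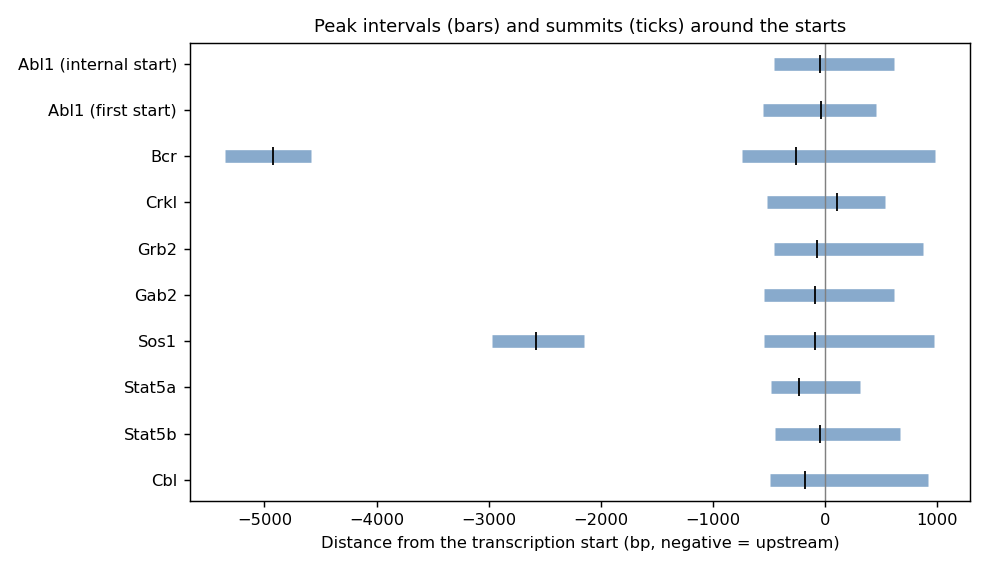
Intervals (bars) and summits (ticks) of the promoter peaks relative to the transcription start, in bp with upstream negative, for the 9 genes whose start could be placed. Bars over the start run from at most 744 bp upstream to at most 981 bp downstream, and Bcr and Sos1 have an additional peak upstream.

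The 8 peaks listed only from beyond 5 kb mostly lay at neighbours. Besides those at Qrfp and the Abl1 end, the Crkl listing included a peak in Aifm3 (40 tags, fold 3.05) and one within 5 kb of the start of Lztr1 (52 tags, fold 3.17). Gab2 was listed for a peak within 5 kb of the start of Kctd21 (48 tags, fold 4.76), 22891 bp past the end of Gab2. Cbl was listed for a peak within 5 kb of the start of Mcam (49 tags, fold 3.50). It was also listed for one in Pdzd3, 14603 bp upstream of Cbl (43 tags, fold 4.19). All of those named apart from the Abl1-end peak lay outside the gene that was followed, and the file names another gene as closest for each of the 8.

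Other genes of the pathway were marked often too. Over 6 lists with 61 different genes, 41 had a promoter peak (67.2%, exact Clopper-Pearson 95% interval 54.0 to 78.7%), compared with 32.8% of all protein-coding genes. Among protein-coding genes with a CpG-rich start the share was 55.5%, and the part of CpG content in the pathway counts was not tested. The lists were chosen with earlier results of these data known. The intervals cover counting error only and are no test against these shares.

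Known target genes of STAT5 had promoter peaks in 10 of 12 cases, and some were far stronger than those of the Stat5 genes. Pim1, a survival kinase, had 279 tags (247 to 314) with fold 7.71 and score 945.7. Socs2, an inhibitor of cytokine signalling, had 265 tags (234 to 299) with fold 10.2 and score 744.9, in a peak that was also within 5 kb of the start of 5730420D15Rik. Bcl2l1, which encodes the survival protein BCL-XL, had fold 5.23 and score 326.9, and Pim3 fold 5.27 and score 246.3. Pim2 and Id1 had no listed peak. Cish and Socs2 stand in this list and in the next.

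Genes of phosphatases, ubiquitin ligases and inhibitors of cytokine signalling had promoter peaks in 8 of 12 cases. After Socs2, the highest scores were at Socs1 (fold 5.07, score 307.4), Socs3 (fold 5.85, score 253.1) and Ptpn1, a tyrosine phosphatase (fold 5.09, score 189.5). The Socs1 interval was also within 5 kb of the starts of Prm3 and Tnp2. Cblb, the relative of Cbl, had a fold of 3.12. Ptpn11, the phosphatase SHP2 that binds Gab2, had no listed peak, and neither had Ubash3a and Ubash3b.

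Further adaptor, docking and exchange genes had promoter peaks in 9 of 14 cases. Gab1, the relative of Gab2, had 156 tags (132 to 182) with fold 5.05 and score 275.8. Nck2 had fold 6.32 and score 231.9, and Sos2, the relative of Sos1, fold 3.43 and score 170.6. Shc1, an adaptor upstream of Grb2, had fold 4.65 and score 202.4 and its peak reached the start of Cks1b as well, the closest gene. Gab3, Grap and Lat had no listed peak.

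Other JAK and STAT genes had promoter peaks in 6 of 8 cases, all with scores of 90.0 or less, as at Stat5a and Stat5b. The highest scores were at Stat3 (79 tags, fold 4.13, score 90.0) and Jak1 (78 tags, fold 3.61, score 88.9). The Stat6 peak, 603 bp inside the gene, had 39 tags (fold 3.47, score 68.8). Stat2 and Stat4 were listed only for peaks beyond 5 kb.

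Relatives and regulators of ABL and BCR had promoter peaks in 5 of 8 cases. Abi1, an ABL-interacting protein, had fold 4.52 and score 136.9, and Abl2, the closest relative of Abl1, fold 3.92 and score 99.0. Rapgef1, a partner of Crk proteins, had fold 4.19 and score 93.7, and Abi2 fold 3.33 and score 74.1. Abr, the relative of Bcr, was listed only for a peak 5440 bp upstream (29 tags, fold 3.65), and Bcar1 had no listed peak. Src-family and related kinase genes had promoter peaks in 5 of 9 cases, of which Fyn (fold 3.70, score 125.3), Syk (fold 3.51, score 108.9), Yes1 (fold 3.76, score 89.7) and Lyn, 4526 bp inside the gene (fold 4.32, score 85.2), had the highest scores. Fes had no listed peak.

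**Figure D5:**
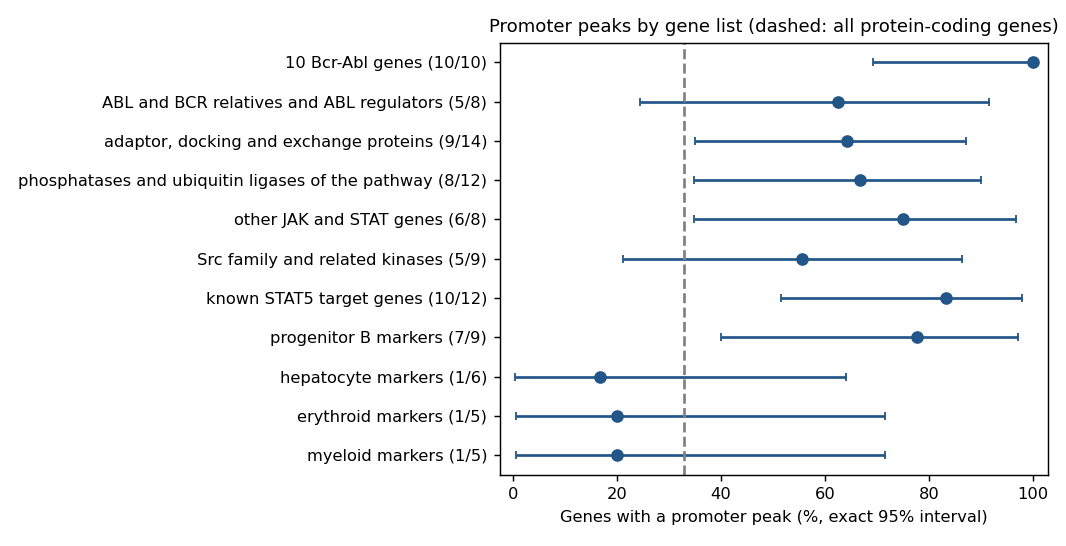
Percentage of genes with a promoter peak in each list with exact Clopper-Pearson 95% intervals, and in brackets the count, with a dashed line at 32.8% of all protein-coding genes. The 10 genes stand at 100%, the 6 pathway lists between 55.6 and 83.3%, and the hepatocyte, erythroid and myeloid marker lists between 16.7 and 20%. The lists were chosen with earlier results of these data known, so the intervals are no test against the line.

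Markers of the labelled cell type and of other fetal liver cells were counted in the same way, although a peak does not measure expression, which was not analysed here. Progenitor B markers had promoter peaks in 7 of 9 cases and hepatocyte, erythroid and myeloid markers in 1 of 6, 1 of 5 and 1 of 5, compared with 32.8% of all protein-coding genes. Peaks over the start itself were found at 3 of the 9 progenitor B markers and at 0 of the others. The share of all protein-coding genes with a peak over a start was 28.4%, so the 3 of 9 were near that share. Cd79a and Vpreb1 each had 2 promoter peaks, of which only the one with the higher score is described here. That of Cd79a lay 4895 bp from its start at Arhgef1 and that of Vpreb1 at Top3b. The Ebf1 peak lay 4688 bp upstream, while Pax5 and Cd79b were listed only from beyond 5 kb. The promoter peaks of the other lists were at Apoa2 (hepatocyte, fold 4.03, closest to Tomm40l), Klf1 (erythroid, fold 4.81) and Elane (myeloid, fold 3.43, closest to Cfd). The hepatocyte genes Alb and Afp, the erythroid gene Hbb-b1 and the myeloid genes Mpo and Itgam had no listed peak.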

How the data were processed

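The tools named in the submitters' processing notes are Bowtie (0.12.8) and MACS (1.4.2), and the build is mm9; parameters, the control given to the caller and the annotation tool are not given in the sources used here, nor is sequencing depth. The deposited list holds 8730 peaks with 763284 tags in all. The deposited tag number is a raw count of reads per peak, the deposited fold is a linear ratio to the caller's background, and the deposited score was taken to be the p-value as minus 10 log10. Deposited positions and distances are in bp, with other values such as distances measured from the peak interval and 0 where it covers the site. Whether starts count from 0 or 1 is not stated.

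The genes and lists were chosen with earlier results of these data known, and no test was made. Of 15228 listed transcripts, 14992 matched RefSeq (GRCm38.p6) by accession, 192 by symbol, 32 by an older symbol and 12 not at all. The background was every protein-coding gene of chromosomes 1 to 19 or X that has an NM accession. Named genes were the 10, other genes with a start near their peaks, up to 4 per list by score, and those without a peak; others named were chosen after their values were seen. Some genes that this rule names are not reported here. Starts were placed from peaks that gave the same site within 1 bp (6845 of 6872 transcripts with more than 1 peak); the placement was tested on simulated data. Promoter sequences are RefSeq's (GRCm38.p6), and their first 250 of 300 bases were used. Python 3.11.15, pandas 2.3.3 and scipy 1.17.1 were used. Intervals cover counting error only, and leave out PCR copies and differences between cultures. Alternatives were other start windows, stricter peaks and closest genes only.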

Additional observations from a re-analysis of the deposited data

How the results depend on the processing

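All 10 genes kept a promoter peak with a start window of 1 kb, with peaks that cover the start and with the closest gene only. With scores at or above the median 8 did. Counting any listing, at whatever distance, could not lower the count. The count of the 10 genes moved to 6 at a fold of 5 or more and to 1 at a fold of 10 or more. Of the 61 pathway genes, 41 had a promoter peak. Under the window, any-listing and closest-gene settings 36 to 50 were counted (27.7 to 48.9% of all protein-coding genes), the 50 with any listing. With scores at or above the median the count moved to 23 of the 61, compared with 18.9% of all genes. It moved to 12 of the 61 at a fold of 5 or more, compared with 11.9% of all genes. At a fold of 10 or more it moved to 1 of the 61, which was close to the 1.48% of all genes. Stricter settings retain fewer peaks. The following alternatives were chosen after seeing the data. The median of 84 tags over the 13 promoter peaks was 87 for peaks over a start only and 84 without Abl1. The number of genes with a SOX core moved from 1 to 3 when the whole 300-base window was searched. With the same change the share of all windows with a core moved from 25.2% to 28.6%. For windows of protein-coding genes with a promoter peak it moved from 17.8% to 20.7%. No paired analysis was possible because there is 1 library per group and only the pull-down was analysed. The list keeps only peaks past the caller's threshold, so a gene without a listed peak may have signal below it.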

Other observations

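Of the peaks named here for the Src-family list, the one with the highest score and fold lay inside a gene and not at its start. Src was listed for an exonic peak 32642 bp past its start (chr2:157282670-157283783, mm9) with 156 tags (fold 10.6, score 406.9), and it had no promoter peak. Fgr was listed for a peak of 212 tags (fold 4.17, score 269.3) that the file assigns to the promoter of Ahdc1. Of the adaptor genes, Grap2 was listed for a peak 6917 bp upstream of its start (61 tags, fold 5.42, score 113.8). These genes were named after their values were seen.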
